A study of Mus musculus with 12 samples.

Results

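The genes of the myeloid C-type lectin, Siglec, CD300 and leukocyte immunoglobulin-like receptor families were followed in mouse brain at 14 d post-stroke. They were chosen by symbol, with earlier results of these data known. The symbols begin with *Clec* and a digit, *Siglec*, *Cd300*, *Lilr* or *Pira* and *Pirb*, without *Siglec1* and *Siglech*. Of the 49315 genes counted, 53 had such a symbol, and the 40 with a total of at least 20 counts over all mice are described. *Siglec15* (19 counts) and *Cd300c* (16 counts) lay just outside this limit, and *Cd300ld2* (23 counts), *Cd300ld4* (28 counts) and *Cd300e* (29 counts) just inside it. *Lilrb4a* and *Lilr4b* were not analysed here. Bulk RNA-sequencing covered 12 brains, 6 from mice transplanted with WT bone marrow (BM) cells and 6 from mice transplanted with *Tet2*-KO BM cells, to ask how *Tet2*-mediated clonal hematopoiesis bears on the subacute phase of stroke. All recipients were male CD45.1 mice with intact *Tet2*, 8 to 12 weeks old, irradiated with the head shielded. Each received 10% CD45.2 donor cells, *Tet2*-/- or *Tet2*+/+ according to the group, with 90% CD45.1 cells that carry *Tet2*, and a 30 min occlusion of the middle cerebral artery 8 to 10 weeks later. *Tet2* is thus missing only from descendants of a minority of the transplanted cells, so its level in a whole brain does not check the labels. For the *Tet2*-KO samples, title and genotype name the knockout and the treatment field names control cells, and the former were used.

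These receptors sit mostly on monocytes, macrophages, dendritic cells and neutrophils and read sugars, lipids and the debris of dying cells. Activating members pair with the adaptors *Fcer1g* or *Tyrobp*, or carry a short activating motif of their own, and signal through the kinase *Syk*. Inhibitory members carry motifs that recruit phosphatases such as *Ptpn6* and raise the threshold for myeloid activation. The symbols also take in genes that are not myeloid receptors. *Clec16a* acts in endolysosomes and mitophagy, *Clec2l* is a lectin known from the brain, *Clec14a* marks endothelium, *Clec11a* is a secreted growth factor and *Clec3b* encodes the plasma protein tetranectin.

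Total counts per mouse lay between 12000261 and 21049763. In the libraries that had no count of a gene described here, such a 0 allows up to 0.146 to 0.238 CPM (counts scaled to a common library size). This is a limit of 3 counts that covers counting error only. Markers of neurons, astrocytes and oligodendrocytes were abundant in every mouse. Markers of other cells differed between the groups. All 6 monocyte markers had a lower level in the *Tet2*-KO group at unadjusted p under 0.05, and so did 5 of 5 neutrophil, 4 of 6 dendritic cell, 3 of 5 pan-macrophage, 2 of 6 border macrophage, 3 of 3 T cell, 1 of 1 B cell, 2 of 5 endothelial and 0 of 7 microglia markers that were tested. The 5 neuronal markers were all higher at that level. Of all genes tested, 12.2% were lower and 10.8% higher at that level (edgeR).

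Of the 40 genes, 29 passed the filter on low counts and were tested, 25 with a negative and 4 with a positive log2 fold change (*Tet2*-KO minus WT). None passed an adjusted p of 0.05 in edgeR's quasi-likelihood test with Benjamini-Hochberg adjustment over all 20290 genes tested, of which 0.0246% passed lower and 0% higher. At an unadjusted p under 0.05, 21 of the 29 were lower (12.2% of all genes tested) and *Clec2l* and *Clec16a* were higher (10.8% of all genes). The median log2 fold change of the 29 was -1.09, beside 0.01 over all genes tested, and 47.7% of all genes had a negative value. The DESeq2 Wald test, which the study used, called 7 lower (3.71% of all genes) and 1 higher (1.12%), and limma-voom with quality weights called 18 lower (7.01%) and 1 higher (2.91%). In a bulk sample, fewer cells of a type and less RNA per cell cannot be told apart.

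Both groups held a mouse that stood apart. Of the 21 lower genes, *Tet2*-KO replicate 5 had the highest value of its group in 20 and lay above the lowest WT mouse in 20, whereas *Tet2*-KO replicates 1 and 6 did so in 0. WT replicate 2 was the highest WT mouse in 20. Without *Tet2*-KO replicate 5, 22 genes passed an adjusted p of 0.05 as lower (7.3% of all genes) and 1 as higher (3.7%, edgeR). Without WT replicate 2, 14 were lower at an unadjusted p under 0.05 (7.92% of all genes in that fit), 1 was higher (7.37%) and none passed the adjusted threshold. No gene of the 29 separated all 6 mice of a group from all 6 of the other, as 0.641% of all genes did as lower and 0.453% as higher.

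**Figure D1:**
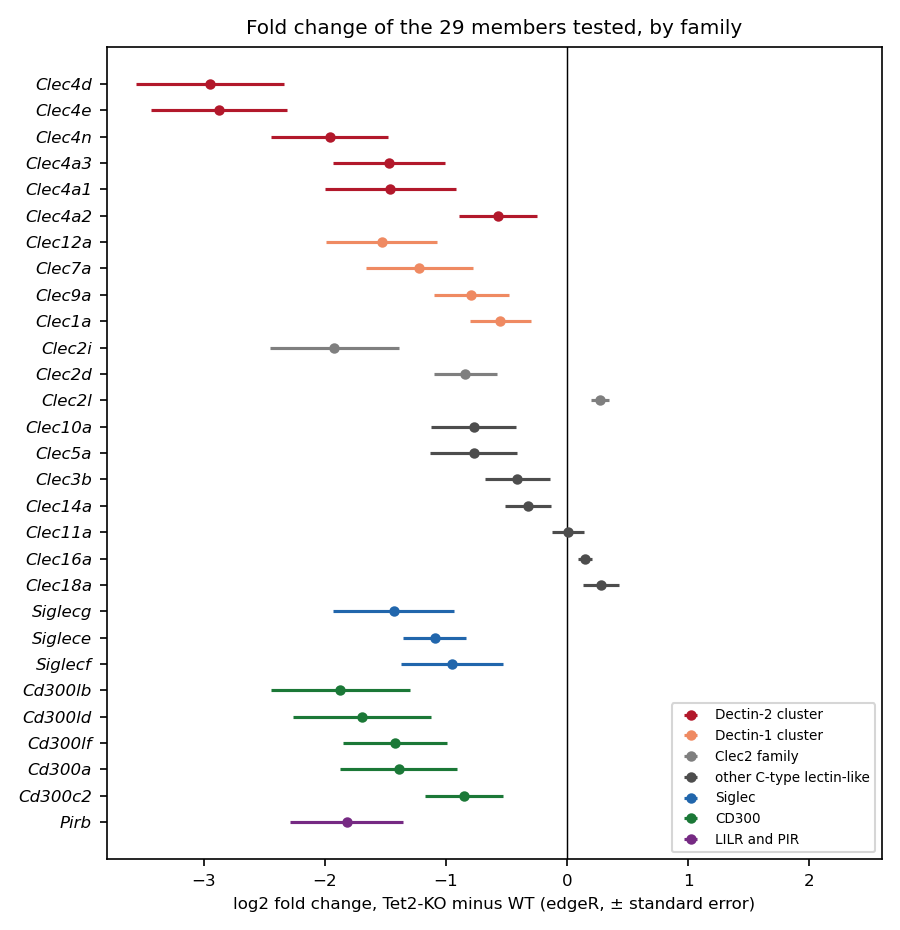
Log2 fold change (*Tet2*-KO minus WT, x axis) of the 29 genes tested, with the standard error from edgeR as bars and colours for families. Points run from -2.95 for *Clec4d* to 0.28 for *Clec18a*, and 25 of them lie left of 0.

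Across genes, levels are compared here only as CPM per kilobase of exon. *Clec2d* had the highest WT median at 23.2 CPM per kb (*Tet2*-KO 10.5), followed by *Clec7a* at 17.9 (6.79), *Clec16a* at 15.6 (17.2), *Clec2l* at 14.9 (18.1) and *Cd300c2* at 11.6 (6.15). All other genes had a WT median of 3.57 CPM per kb, that of *Pirb*, or less. The largest fold changes came from genes of low level, *Clec4d* with 1.93 (0.13) and *Clec4e* with 0.679 (0.061).

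**Figure D2:**
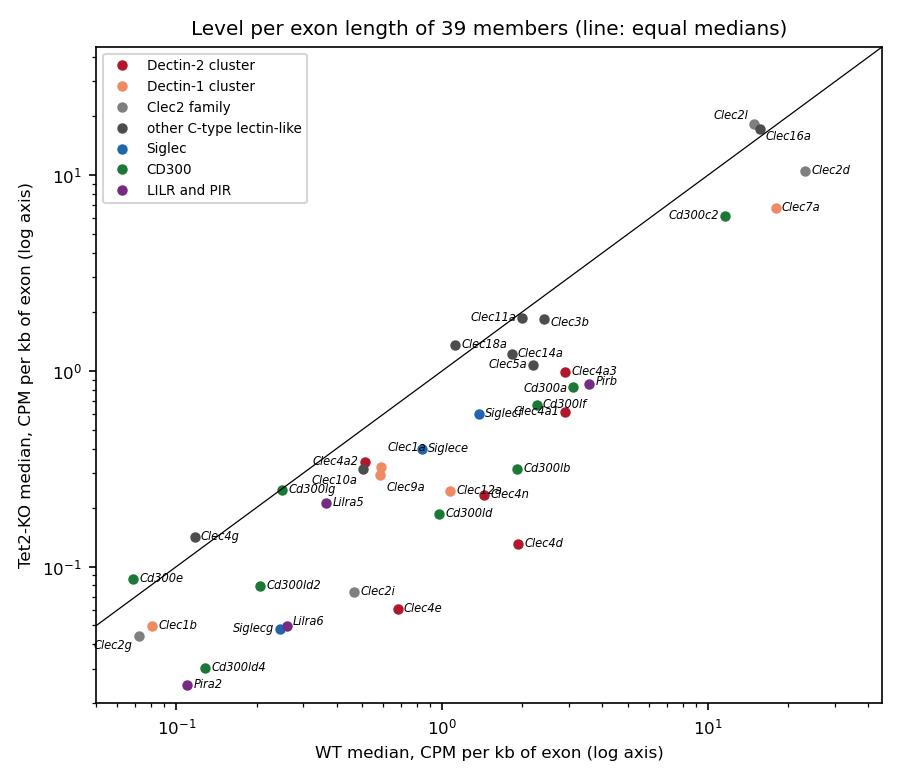
Median level in WT mice (x axis) and in *Tet2*-KO mice (y axis), both in CPM per kb of exon on log axes, for the 39 genes with a median above 0 in both groups. Points under the line have the lower median in *Tet2*-KO mice, and *Clec2l* and *Clec16a* lie above it among the abundant genes.

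The Dectin-2 cluster on chromosome 6 (122921848 to 123289870 from *Clec4a1* to *Clec4e*, mm10) gave the largest differences. *Clec4e* (Mincle), which binds mycobacterial glycolipid and a protein released by dying cells and signals through *Fcer1g*, ranged over 1.35, 3.37 and 5.31 CPM (lowest, median and highest) in WT mice and 0, 0.303 and 1.80 CPM in *Tet2*-KO mice. All *Tet2*-KO mice lay below the lowest WT mouse except replicate 5. The log2 fold change was -2.87 ± 0.56 (SE; unadjusted p = 0.000251 and adjusted p = 0.110 by edgeR; DESeq2 adjusted p = 0.0119). The single 0, in *Tet2*-KO replicate 1, allows up to 0.186 CPM. *Clec4d* (MCL), the partner of Mincle, ranged over 0.714, 3.09 and 4.95 CPM in WT and 0, 0.207 and 1.41 CPM in *Tet2*-KO mice. Again all but *Tet2*-KO replicate 5 lay below the lowest WT mouse. Its log2 fold change was -2.95 ± 0.61 (adjusted p = 0.110 by edgeR; DESeq2 adjusted p = 0.0141).

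*Clec4n* (Dectin-2), an activating receptor for mannans, had 0.793, 2.04 and 2.93 CPM in WT and 0.124, 0.329 and 1.57 CPM in *Tet2*-KO mice. The groups overlapped through *Tet2*-KO replicate 5, and the log2 fold change was -1.96 ± 0.48 (adjusted p = 0.110 by edgeR; DESeq2 adjusted p = 0.0107). *Clec4a3*, of the DCIR subfamily, had 2.78, 3.84 and 6.60 CPM in WT and 0.186, 1.31 and 3.61 CPM in *Tet2*-KO mice. Apart from replicate 5, the *Tet2*-KO mice stayed under the WT range, with a log2 fold change of -1.47 ± 0.46 (adjusted p = 0.128 by edgeR). *Clec4a1* of the same subfamily had -1.46 ± 0.54 (unadjusted p = 0.0195). The inhibitory member *Clec4a2* (DCIR) had the smallest difference of the cluster, -0.57 ± 0.32 (unadjusted p = 0.098). Summed over the 6 genes, the cluster held between 9.12 and 29.6 CPM in WT mice and between 1.43 and 15.0 CPM in *Tet2*-KO mice.

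The stretch upstream of *Clec4e* is shown because it carries the same short motif as most of these genes. GAGGAA, the core of sites bound by PU.1 and other ETS factors, was searched on both strands of the 250 bases before the RefSeq start (GRCm38.p6) of the 34 genes with an entry. It occurred in 24 of them, or 70.6%, against 23.1% of 27025 promoter windows of the same length. Of the 21 lower genes, 18 had an entry and 13 of these held the motif. The 24 also took in *Clec2l* and *Clec16a*, which were higher, and the non-myeloid *Clec11a* and *Clec14a*. The motif was thus not particular to the lower genes. Near-copies such as *Pirb*, *Pira2* and *Lilra6* were counted separately. C/EBP (TTGCNNAA) was found in 6 windows (9.55% of all windows), AP-1 (TGANTCA) in 3 (6.87%), the IRF motif in 1 (3.04%) and the NF-kB motif in 1, that of *Clec2l* (0.337%). Each motif was searched on both strands by itself, overlaps with another were kept, and a match is a description of the sequence, not of binding. The window of *Clec4e*, on the minus strand of chr6:123289872-123290121, has GAGGAA or its reverse complement in capitals:
Clec4e: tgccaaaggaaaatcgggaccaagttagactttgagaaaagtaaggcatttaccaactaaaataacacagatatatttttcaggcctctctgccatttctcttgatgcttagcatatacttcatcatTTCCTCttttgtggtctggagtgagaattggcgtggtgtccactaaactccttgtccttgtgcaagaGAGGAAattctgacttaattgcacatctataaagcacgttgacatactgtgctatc

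Further along chromosome 6 lies the Dectin-1 cluster (129342691 to 129472779 from *Clec12a* to *Clec7a*). *Clec7a* (Dectin-1), the activating receptor for beta-glucans, was the most abundant myeloid lectin of these brains after *Clec2d* per kilobase, with 38.2, 47.3 and 101 CPM in WT and 6.38, 17.9 and 49.1 CPM in *Tet2*-KO mice. WT replicate 2 alone exceeded 49.5 CPM, and 5 of the 6 *Tet2*-KO values were under the WT range. Its log2 fold change was -1.22 ± 0.44 (unadjusted p = 0.0198 and adjusted p = 0.155 by edgeR). *Clec12a* (MICL), an inhibitory receptor for uric acid crystals, had 4.52, 5.93 and 8.68 CPM in WT and 0.62, 1.35 and 6.28 CPM in *Tet2*-KO mice. Here *Tet2*-KO replicate 5 lay above the WT median, and the log2 fold change was -1.53 ± 0.46 (adjusted p = 0.124 by edgeR). *Clec9a* (DNGR-1), with which dendritic cells sense the actin of dead cells, had -0.79 ± 0.31 (unadjusted p = 0.0238), and *Clec1a* had -0.55 ± 0.25 (unadjusted p = 0.0464). *Clec1b* (CLEC-2), the platelet receptor for podoplanin, was not tested, with 33 counts over the WT and 32 over the *Tet2*-KO mice. *Clec1b* and *Clec9a* share 184 bp of exon on 1 strand, so their counts are uncertain.

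The Clec2 genes encode ligands and relatives of the natural killer cell lectins and did not share a direction. *Clec2d* (Clr-b), a ligand of an inhibitory natural killer receptor, had 22.9, 28.2 and 40.0 CPM in WT and 10.7, 12.8 and 30.9 CPM in *Tet2*-KO mice. All *Tet2*-KO mice but replicate 5 were below the lowest WT mouse, and the log2 fold change was -0.84 ± 0.26 (adjusted p = 0.128 by edgeR; DESeq2 adjusted p = 0.0186). *Clec2i* (Clr-g) had 0.635, 1.45 and 2.58 CPM in WT and 0, 0.232 and 1.26 CPM in *Tet2*-KO mice, with -1.92 ± 0.53 (adjusted p = 0.118 by edgeR). *Clec2g* had 22 counts over the WT and 12 over the *Tet2*-KO mice and was not tested.

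*Clec2l*, the lectin of brain cells, had the opposite direction, with 19.5, 21.3 and 23.9 CPM in WT and 22.9, 25.8 and 30.1 CPM in *Tet2*-KO mice. The groups overlapped only between 22.9 and 23.9 CPM, and the log2 fold change was 0.27 ± 0.076 (unadjusted p = 0.00269 and adjusted p = 0.116 by edgeR; DESeq2 adjusted p = 0.0441). *Clec16a* had 110, 130 and 134 CPM in WT and 127, 144 and 151 CPM in *Tet2*-KO mice, a log2 fold change of 0.15 ± 0.06 (unadjusted p = 0.0232 and adjusted p = 0.163 by edgeR). The summed CPM of the 5 neuronal markers, between 2410 and 3640 in WT and between 3190 and 4450 in *Tet2*-KO mice, moved in the same direction, and its part in the result was not tested. The *Clec2l* window on the plus strand of chr6:38662819-38663068 is shown for contrast, as that of the gene with the opposite direction, with GAGGAA or its reverse complement in capitals:
Clec2l: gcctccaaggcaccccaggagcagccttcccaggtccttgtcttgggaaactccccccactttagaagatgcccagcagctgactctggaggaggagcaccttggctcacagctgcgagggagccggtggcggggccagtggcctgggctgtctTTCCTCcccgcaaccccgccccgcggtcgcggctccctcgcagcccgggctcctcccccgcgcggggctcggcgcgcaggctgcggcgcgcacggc

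The remaining C-type lectin-like genes are scattered over the genome and differed less. *Clec5a* (MDL-1), which pairs with *Tyrobp*, had 4.68, 8.40 and 13.7 CPM in WT and 1.80, 4.09 and 10.4 CPM in *Tet2*-KO mice, a log2 fold change of -0.77 ± 0.36 (unadjusted p = 0.0524). *Clec10a* (MGL1), the galactose-type lectin of macrophages and dendritic cells, had -0.77 ± 0.35 (unadjusted p = 0.0432). The non-myeloid genes *Clec14a* (-0.32 ± 0.19), *Clec3b* (-0.41 ± 0.27) and *Clec11a* (0.01 ± 0.13) had an unadjusted p of 0.118, 0.144 and 0.949, and *Clec18a* had 0.28 ± 0.15 (unadjusted p = 0.0793). Beside *Clec14a*, the endothelial markers *Cldn5* (-0.45 ± 0.13) and *Cdh5* (-0.37 ± 0.15) were lower at an unadjusted p under 0.05, and the other 3 of the list were not. *Clec4g*, which overlaps another gene on the opposite strand, had 32 counts over the WT and 31 over the *Tet2*-KO mice.

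Siglecs bind sialic acids on the surface of other cells, and the 3 counted here carry inhibitory motifs. *Siglece*, a restraint on neutrophils and macrophages, had 1.15, 1.55 and 2.94 CPM in WT and 0.62, 0.739 and 1.28 CPM in *Tet2*-KO mice. It was the only one of the 21 lower genes whose highest *Tet2*-KO mouse was replicate 3 rather than replicate 5. Its log2 fold change was -1.09 ± 0.26 (unadjusted p = 0.000767 and adjusted p = 0.110 by edgeR; DESeq2 adjusted p = 0.0170). *Siglecg*, best known from B cells, had 0.793, 1.18 and 2.30 CPM in WT and 0.0769, 0.232 and 1.41 CPM in *Tet2*-KO mice, with -1.43 ± 0.50 (adjusted p = 0.138 by edgeR). The 4 B cell markers summed to between 1.98 and 5.67 CPM in WT and between 0.462 and 2.04 CPM in *Tet2*-KO mice, and their part in the *Siglecg* result was not tested. *Siglecf*, known from eosinophils and alveolar macrophages, had -0.95 ± 0.42 (unadjusted p = 0.0418). The *Siglece* window, on the minus strand of chr7:43660162-43660411, held 3 copies of the motif, again in capitals on either strand:
Siglece: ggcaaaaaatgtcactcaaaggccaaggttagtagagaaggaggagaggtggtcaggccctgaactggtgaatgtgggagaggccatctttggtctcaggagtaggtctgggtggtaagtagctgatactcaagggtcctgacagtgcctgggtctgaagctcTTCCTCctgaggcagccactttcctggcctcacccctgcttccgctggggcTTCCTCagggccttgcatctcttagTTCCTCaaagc

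The CD300 receptors bind phospholipids exposed on dying cells, and 9 of the 10 counted lie side by side on chromosome 11 (114890041 to 115133992 from *Cd300a* to *Cd300lf*). All 5 tested were lower at an unadjusted p under 0.05 (edgeR, 12.2% of all genes tested), the inhibitory and the activating ones alike. *Cd300lf* (CLM-1), inhibitory, had 8.90, 11.6 and 22.7 CPM in WT and 1.36, 3.46 and 11.5 CPM in *Tet2*-KO mice, a log2 fold change of -1.42 ± 0.43 (adjusted p = 0.126 by edgeR; DESeq2 adjusted p = 0.047). *Cd300a*, inhibitory as well, had -1.39 ± 0.48 (unadjusted p = 0.0146). *Cd300lb* (CLM-7), which pairs with *Tyrobp*, had 4.13, 5.56 and 10.3 CPM in WT and 0.124, 0.919 and 5.65 CPM in *Tet2*-KO mice, with -1.87 ± 0.57 (adjusted p = 0.126 by edgeR). *Cd300ld*, which pairs with *Fcer1g*, had 1.67, 2.57 and 4.88 CPM in WT and 0.186, 0.490 and 3.29 CPM in *Tet2*-KO mice, with -1.69 ± 0.57 (adjusted p = 0.137 by edgeR). For these 4 genes, 5 of the 6 *Tet2*-KO values were under the WT range and replicate 5 was within it.

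*Cd300c2*, an activating receptor and the most abundant of the family per kilobase, had 12.9, 14.8 and 25.0 CPM in WT and 3.16, 7.84 and 15.7 CPM in *Tet2*-KO mice. *Tet2*-KO replicates 4 and 5 lay within the WT range, and the log2 fold change was the smallest of the 5 at -0.85 ± 0.32 (unadjusted p = 0.0232 and adjusted p = 0.163 by edgeR). Summed over the 10 genes, CD300 transcripts lay between 43.4 and 92.2 CPM (median 50.1) in WT and between 7.44 and 53.4 CPM (median 17.4) in *Tet2*-KO mice. The other 5 genes were not tested. *Cd300lg*, known from capillary endothelium and located apart from the others, had 66 counts over the WT and 65 over the *Tet2*-KO mice, and *Cd300e* had 12 and 17. *Cd300ld2* had 16 and 7, *Cd300ld3* 25 and 6 and *Cd300ld4* 19 and 9. Of the 100-base stretches of their transcripts, 16.2%, 80.9% and 86.7% also occur in another gene, so the counts of *Cd300ld3* and *Cd300ld4*, and in part those of *Cd300ld2*, are uncertain.

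*Pirb*, the inhibitory receptor for MHC class I, stood for its family, whose genes lie on chromosome 7 (3711409 to 4243463 from *Pirb* to *Lilra5*). It is also known from neurons, where it binds myelin inhibitors. *Pirb* had 10.7, 15.9 and 28.2 CPM in WT and 1.05, 3.83 and 11.5 CPM in *Tet2*-KO mice. Only *Tet2*-KO replicate 5 exceeded the lowest WT mouse, and the log2 fold change was -1.82 ± 0.47 (unadjusted p = 0.0026 and adjusted p = 0.116 by edgeR; DESeq2 adjusted p = 0.0187). Its activating counterpart *Pira2* had 40 counts over the WT and 12 over the *Tet2*-KO mice, *Lilra6* had 59 and 17, and *Lilra5* had 74 and 44, none of them tested. Counts of *Pira2* are uncertain, since 84.1% of its 100-base stretches occur in other genes, as are in part those of *Pirb* (20.7%) and *Lilra6* (11.9%).

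The upstream windows of these near-copies are printed because the likeness extends beyond the transcripts. Laid over each other, the windows of *Pirb* and *Pira2* were identical at 217 of 222 bases (97.7%), those of *Pirb* and *Lilra6* at 212 of 220 (96.4%) and those of *Pira2* and *Lilra6* at 238 of 248 (96%). Each held 3 copies of GAGGAA or its reverse complement, in capitals. All are on the minus strand, at chr7:3720383-3720632, chr7:3845052-3845301 and chr7:3915502-3915751:
Pirb: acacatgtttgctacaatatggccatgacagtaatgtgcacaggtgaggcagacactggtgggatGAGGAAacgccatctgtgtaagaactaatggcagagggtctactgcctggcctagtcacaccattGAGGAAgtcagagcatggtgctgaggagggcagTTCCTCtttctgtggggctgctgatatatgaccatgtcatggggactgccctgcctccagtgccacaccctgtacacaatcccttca
Pira2: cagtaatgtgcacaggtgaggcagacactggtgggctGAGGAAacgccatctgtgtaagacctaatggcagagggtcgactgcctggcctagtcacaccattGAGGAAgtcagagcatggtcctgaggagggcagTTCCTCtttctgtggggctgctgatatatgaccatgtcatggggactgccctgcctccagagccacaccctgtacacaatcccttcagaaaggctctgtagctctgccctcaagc
Lilra6: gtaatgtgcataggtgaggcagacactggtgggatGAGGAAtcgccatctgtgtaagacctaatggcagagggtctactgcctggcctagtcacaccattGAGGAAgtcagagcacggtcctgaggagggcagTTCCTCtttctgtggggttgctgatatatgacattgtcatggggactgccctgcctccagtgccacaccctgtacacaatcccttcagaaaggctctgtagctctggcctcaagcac

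**Figure D3:**
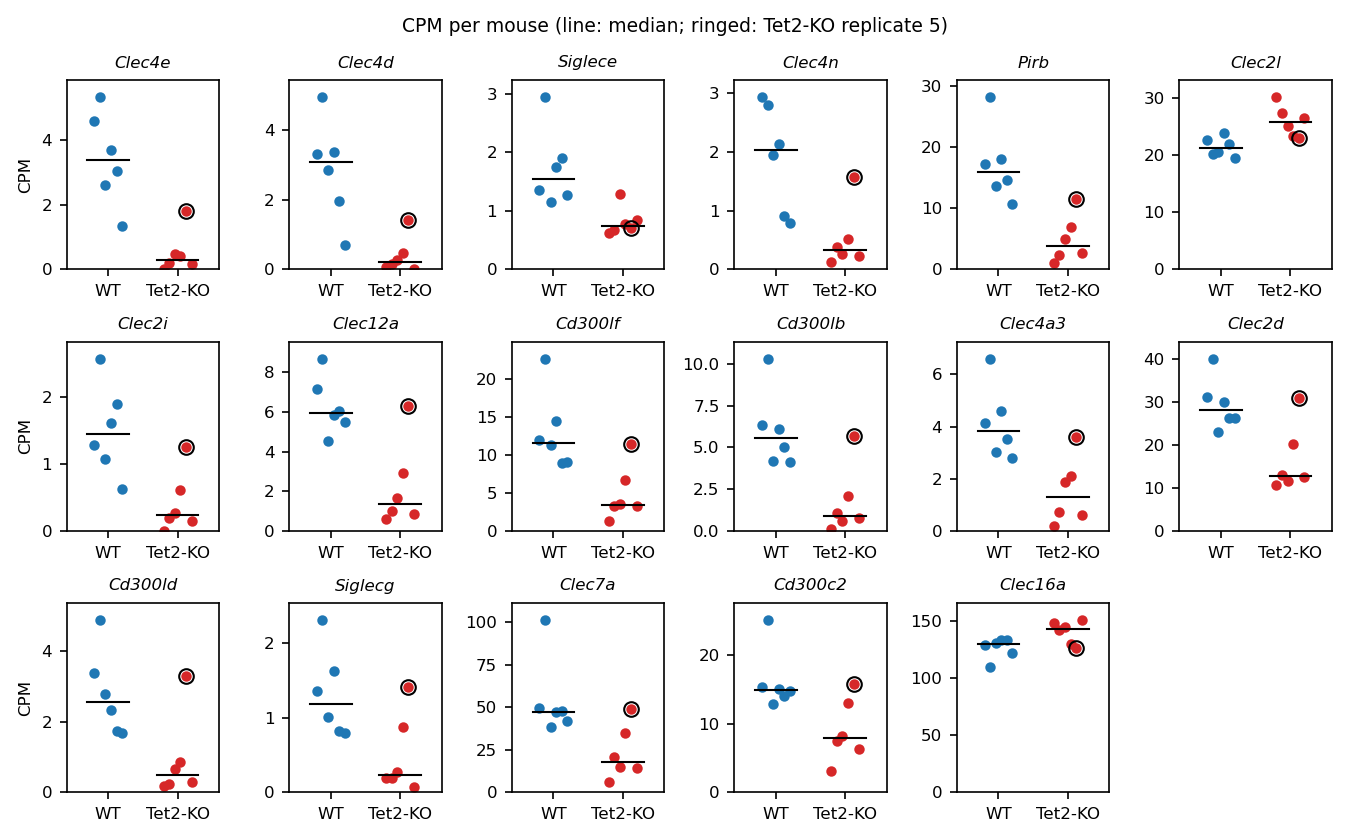
CPM (y axis) of the 17 genes described in full, 1 point per mouse, with WT mice in blue, *Tet2*-KO mice in red and lines at the medians. *Tet2*-KO replicate 5 (ringed) is the highest *Tet2*-KO mouse in most panels and lies within or near the WT range, while *Clec2l* and *Clec16a* show the opposite order.

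Grouped by what they do, both activating and inhibitory receptors had negative values. Of 9 activating receptors tested, 9 had a negative log2 fold change and 8 an unadjusted p under 0.05, with a median of -1.69. Of 8 inhibitory receptors, 8 were negative and 7 had an unadjusted p under 0.05, with a median of -1.41. Among all genes tested, 47.7% were negative and 12.2% were lower at an unadjusted p under 0.05 (edgeR). None of these receptors passed the adjusted threshold in edgeR, and the DESeq2 Wald test called 3 of each kind lower (3.71% of all genes). The summed inhibitory level was between 0.581 and 0.692 times the activating level in WT mice and between 0.41 and 0.593 times in *Tet2*-KO mice, with 4 of the 6 *Tet2*-KO values under the WT range. This ratio was chosen after the values were seen and has no test. It rests on CPM without regard to exon length, so abundant genes weigh most. *Clec7a* was the largest part of the activating sum (WT median 47.3 CPM, beside 89.1 CPM for the sum). The median log2 fold changes, -1.69 for activating and -1.41 for inhibitory receptors, have the opposite order to the ratio.

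By family, the sums shared their highest mouse in each group, apart from the remaining C-type lectin-like genes. In the Dectin-2, Dectin-1, Clec2, CD300 and PIR sums, 5 of the 6 *Tet2*-KO values were under the WT range, and in the Siglec sum 4 were. *Tet2*-KO replicate 5 was the highest *Tet2*-KO mouse in each of these sums, and WT replicate 2 the highest WT mouse. The remaining C-type lectin-like genes, of which *Clec16a* holds most reads, had a sum between 149 and 165 CPM in WT and between 159 and 174 CPM in *Tet2*-KO mice.

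**Figure D4:**
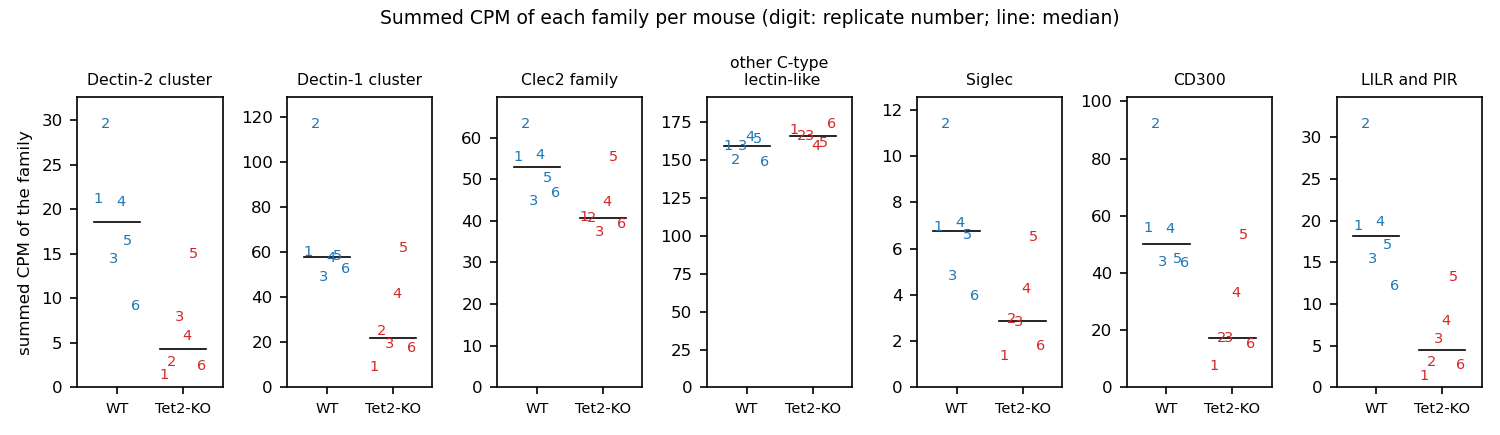
Summed CPM (y axis) of each of the 7 families per mouse, with the digit giving the replicate number, WT in blue, *Tet2*-KO in red and lines at the medians. Digit 5 in red sits within the WT range in each panel, and digit 1 in red is the lowest in the Dectin-2, Dectin-1, Siglec, CD300 and LILR panels.

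The adaptors and signalling proteins of these receptors are known from outside the families and form a list of 17 genes. At an unadjusted p under 0.05, 11 were lower (12.2% of all genes tested) and 1 was higher (10.8%), and none passed the adjusted threshold in edgeR. The DESeq2 Wald test called 2 lower (3.71% of all genes), and limma-voom 10 lower (7.01%) and 1 higher (2.91%). *Tyrobp* (DAP12), the adaptor of *Cd300lb* and *Clec5a*, had 59.6, 65.4 and 131 CPM in WT and 16.9, 38.3 and 72.9 CPM in *Tet2*-KO mice, with a log2 fold change of -0.86 ± 0.33 (adjusted p = 0.171 by edgeR). *Fcer1g*, the adaptor of activating receptors of the Dectin-2 cluster, had -0.88 ± 0.36 (unadjusted p = 0.0344) and *Hcst* (DAP10) -0.79 ± 0.29 (unadjusted p = 0.0154).

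Among the kinases described, *Fgr* had the largest difference, with 8.01, 13.2 and 23.5 CPM in WT and 1.05, 3.28 and 9.88 CPM in *Tet2*-KO mice. Its log2 fold change was -1.74 ± 0.45 (adjusted p = 0.116 by edgeR; DESeq2 adjusted p = 0.0206). *Syk* had -1.13 ± 0.37 (unadjusted p = 0.0115) and *Lyn* -0.78 ± 0.30 (unadjusted p = 0.0242). Downstream of them, *Plcg2* had -0.78 ± 0.31, *Vav1* -0.87 ± 0.33 and *Malt1* -0.35 ± 0.12, each at an unadjusted p under 0.05. *Card9*, the scaffold that carries the signal to NF-kB, had -0.25 ± 0.16 (unadjusted p = 0.125). The phosphatase *Ptpn6*, on which inhibitory receptors rely and which is made mainly by blood cells, had -0.88 ± 0.31 (unadjusted p = 0.017), whereas the widely expressed *Ptpn11* had 0.02 ± 0.046 (unadjusted p = 0.726). *Src*, also widely expressed, was the one gene with a higher level, 0.16 ± 0.054 (unadjusted p = 0.00994). Without WT replicate 2, the lower genes of the list numbered 5 at an unadjusted p under 0.05 (7.92% of all genes in that edgeR fit). Without *Tet2*-KO replicate 5 they numbered 15 (14.6% of all genes), of which 8 passed the adjusted threshold (7.3% of all genes).

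Marker levels moved with these receptors for some of the cells that bear them and not for others. At an unadjusted p under 0.05 (edgeR), 2 of 6 border macrophage and 4 of 6 dendritic cell markers were lower (12.2% of all genes tested). The border macrophage markers *Lyve1* (log2 fold change 0.22) and *Cd163* (0.04) and the dendritic cell markers *Flt3* (-0.12) and *Zbtb46* (-0.04) were not. *Siglec1* (-1.34, unadjusted p = 0.055 by edgeR) and *Cbr2* (-0.64, unadjusted p = 0.0656 by edgeR), also of the border macrophage list, missed that level with negative values. The 6 border macrophage markers summed to between 68.6 and 133 CPM in WT and between 15.3 and 108 CPM in *Tet2*-KO mice. Summed, the 6 monocyte markers lay between 367 and 797 CPM in WT and between 118 and 465 CPM in *Tet2*-KO mice, with a median log2 fold change of -1.84. Most of that sum was *Fn1* (341 to 740 CPM in WT and 116 to 428 CPM in *Tet2*-KO mice). The 7 neutrophil markers summed to between 70.5 and 158 CPM in WT and between 20.7 and 80.5 CPM in *Tet2*-KO mice, most of it *Csf3r* (64.4 to 138 and 18.5 to 74.8 CPM). Their defining gene *Ly6g* had a mean of 0.0114 CPM, so it was near 0. *Retnlg* of the same list was not tested and had 46 counts over the WT and 47 over the *Tet2*-KO mice. By contrast, *S100a8* (log2 fold change -2.16 ± 0.31) and *S100a9* (-2.84 ± 0.41) both passed with an edgeR adjusted p of 0.0364. The 7 microglial markers summed to between 581 and 1040 CPM in WT and between 293 and 766 CPM in *Tet2*-KO mice, with a median of -0.17. The part of these cells in the results was not tested.

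Set against the summed CPM of 5 pan-macrophage markers (*Adgre1*, *Aif1*, *Cd68*, *Itgam* and *Csf1r*), the families differed in how far the groups stood apart. These ratios were chosen after the values were seen and are given without a test. Most of the marker sum was *Csf1r* (236 to 391 CPM in WT and 98.5 to 301 CPM in *Tet2*-KO mice). Its log2 fold change of -0.53 was the smallest difference of the 5 markers. The PIR and LILR sum was between 2.86% and 4.73% of the marker sum in WT and between 1.01% and 2.62% in *Tet2*-KO mice, so that the groups did not overlap, replicate 5 included. Most of this family sum was *Pirb*, with medians of 15.9 beside 18.2 CPM in WT and 3.83 beside 4.46 CPM in *Tet2*-KO mice. The family ratio is thus not separate from that of *Pirb*. CD300 lay between 10.3% and 13.2% in WT and between 5.49% and 10.6% in *Tet2*-KO mice, with 5 of the 6 *Tet2*-KO values under the WT range. The Dectin-1 cluster had 5 such values and the Dectin-2 cluster 4. In the Siglec sum, at 0.94% to 1.70% in WT and 0.849% to 1.29% in *Tet2*-KO mice, there was 1.

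Gene by gene, 2 of the 29 had a ratio that was lower in every *Tet2*-KO mouse than in every WT mouse. Of all genes tested, 0.473% separated as lower in this way. *Pirb* was between 2.54% and 4.33% of the macrophage marker sum in WT mice and between 0.778% and 2.29% in *Tet2*-KO mice. *Cd300c2* was between 3.24% and 3.57% in WT and between 2.33% and 3.18% in *Tet2*-KO mice, a narrow gap. Relative to the macrophage markers *Tet2*-KO replicate 5 thus lay outside the WT range in both, although its CPM lay within that range.

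**Figure D5:**
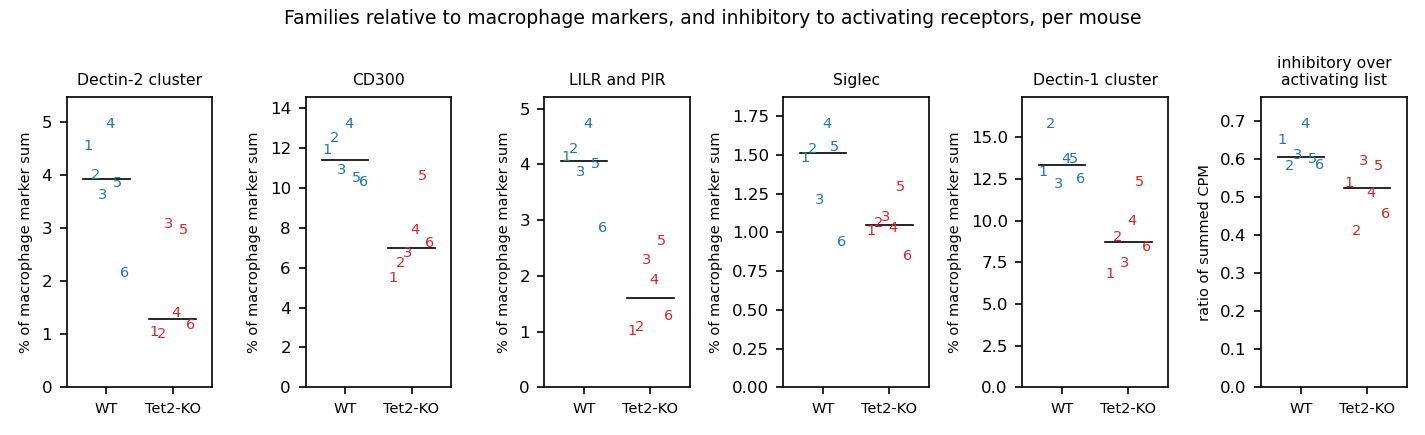
Summed CPM of 5 families as a percentage of the summed CPM of 5 macrophage markers (first 5 panels), and the ratio of inhibitory to activating receptors (last panel), per mouse. Digits are replicate numbers, WT in blue and *Tet2*-KO in red, with lines at the medians, and only the LILR and PIR panel shows no overlap between the groups.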

How the data were processed

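Bulk RNA-sequencing of ribosomal RNA-depleted brain RNA was analysed for 6 mice per group, each a separate mouse. Per the labels and the study's methods, the authors trimmed reads with Trimmomatic 0.36, aligned them to mm10 with STAR 2.5.2b and assigned unique exon reads with featureCounts of Subread 1.5.2. They deposited unnormalized counts per gene. The strand setting and annotation release are not given in the sources used here, so the counts of overlapping genes are uncertain. Symbols, exon lengths and coordinates came from GENCODE M21 (GRCm38), and promoter windows, taken from the first listed entry of a gene, from RefSeq.

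From these counts, genes passing filterByExpr were scaled by TMM and tested with the robust quasi-likelihood test of edgeR 4.0.16 in R 4.3.3, with Benjamini-Hochberg adjustment at a threshold of 0.05. Alternatives were DESeq2 1.42.0, limma-voom (limma 3.58.1), other scalings, no filter, a replicate block and each library left out in turn. Simulated counts with known changes served to check the edgeR, DESeq2 and limma-voom tests. Full values were given for genes past the threshold, the 14 with the smallest p, the 5 with the highest mean CPM and those higher at an unadjusted p under 0.05. Members, lists and rules were chosen with earlier results of these data known. The single values of 1 partner gene are not reported here.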

Additional observations from a re-analysis of the deposited data

Results flagged for a closer look

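By Dixon's criterion, chance flags about 1 in 20 separate groups. The 48 groups of 6 mice taken here share mice and genes, so their flags are not independent and cannot be set against that share. In 11 of the 48, the highest mouse lay further from the rest than the criterion allows. *Tet2*-KO replicate 5 was this mouse for *Clec4e* (1.80 CPM, the others 0 to 0.471), *Clec4d* (1.41 CPM, the others 0 to 0.463), *Clec4n* (1.57 CPM, the others 0.124 to 0.514), *Cd300lb* (5.65 CPM, the others 0.124 to 2.06) and *Cd300ld* (3.29 CPM, the others 0.186 to 0.874). *Tet2*-KO replicate 3 was this mouse for *Siglece* (1.28 CPM, the others 0.62 to 0.846).

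In the WT group it was replicate 2 each time. *Clec7a* had 101 CPM there (the others 38.2 to 49.5), *Cd300c2* 25.0 CPM (the others 12.9 to 15.3) and *Cd300lb* 10.3 CPM (the others 4.13 to 6.32). The Dectin-1 cluster summed to 117 CPM in that mouse (the others 48.8 to 60.2) and the CD300 genes to 92.2 CPM (the others 43.4 to 55.7).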

How the results depend on the processing

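The log2 fold changes of the 17 genes described in full, and the median over the 29 tested, kept their sign under every alternative run. The count of lower genes past the adjusted threshold, 0 in edgeR, was 7 by the DESeq2 Wald test and 18 by limma-voom, and that of higher genes was 1 by each. For the partner genes it was 2 and 10 lower, and limma-voom called 1 higher. Leaving out 1 mouse at a time, lower genes past the threshold ranged from 0 to 22 and the higher from 0 to 1, and those at an unadjusted p under 0.05 from 14 to 24 and from 1 to 3. The 22 came without *Tet2*-KO replicate 5, the 14 without WT replicate 2, and the single higher gene without WT replicate 2 or *Tet2*-KO replicate 6. The median log2 fold change ranged from -1.2 to -0.87. Partner genes ranged from 0 to 8 past the threshold as lower and from 5 to 15 at an unadjusted p under 0.05.

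The replicate numbers are not known to pair the mice, and the correlations of same-numbered mice ran from -0.169 to 0.229. With the replicate number as a block, 0 members passed the adjusted threshold, 21 lower and 2 higher ones had an unadjusted p under 0.05 (edgeR), and the median log2 fold change was -1.07, with *Clec4e* at -2.96 and an adjusted p of 0.168. Depth limits the 11 genes that were not tested.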
